A study of Mus musculus with 9 samples.

Results

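A set of 45 genes that cells use to copy their DNA and to divide was followed in laser-microdissected capillaries of mouse bone. The genes were chosen for their known role in the cell cycle, without a threshold on any measured value but with earlier results of these data known. Of the set, 19 act mainly in S phase and 26 mainly in G2 and mitosis. All 45 were found among the 39179 genes listed in each library, through their Ensembl identifiers in the GENCODE annotation of GRCm38, and all 45 had enough counts to be tested among 13418 genes. RNA came from single capillaries together with the cells around them, cut from the ossification front (OF) of the femur, the zone below the growth plate where new bone is laid down. Juvenile libraries came from mice aged 4 weeks (n = 5) and adult libraries from mice aged 12 weeks (n = 4), all of the Tg(TIE2GFP)287Sato/J line, with C57BL/6 given in the labels as mouse origin, and without a stated treatment. In this line GFP is driven by the Tie2 (Tek) promoter, which is active in endothelial cells, and the cells around each capillary entered by position and were not sorted. Many cut pieces were pooled for each library, and the labels number the libraries within an age without naming the animal, so that the p-values below measure the spread between these libraries. The study used both sexes together without giving the sex of a library. All 4 adult and 3 of the 5 juvenile libraries held more counts of Xist, which is transcribed in females, than of Y-linked genes, so that this pattern was not balanced between the ages.

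Before a cell divides, it loads the MCM helicase onto replication origins with the help of Cdc6 and Cdt1, raises its supply of deoxynucleotides and copies its DNA behind the sliding clamp Pcna. It then builds up cyclin B and Cdk1 activity, condenses its chromosomes, attaches them to the spindle and, once the anaphase-promoting complex has been switched on, separates them. Genes of the first wave are classical targets of E2F factors, and genes of the second wave are classical targets of the DREAM and MuvB complexes together with B-Myb and FoxM1. In growing bone, cells in cycle include osteoprogenitors, endothelial cells of the type H capillaries, columnar chondrocytes of the nearby growth plate and blood cell precursors in the marrow.

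Between 4856833 and 7398483 counts per juvenile library and between 5821596 and 8077362 per adult library fell on genes, and 3 counts, taken as the floor, corresponded to 0.371 to 0.618 CPM (counts per 1000000 counts of the library). The floor covers counting error only, because PCR copies of a molecule are counted again. Levels below are CPM of the TMM-scaled library, and they are divided by exon length (CPM per kb) where genes are compared with each other. All 8 endothelial markers, among them Pecam1 and Cdh5, were detected in all 9 libraries. None was called between the ages in edgeR (adjusted p under 0.05), and the counts were also 0 at an unadjusted p under 0.05, in DESeq2 and in limma voom. Osteoblast markers were detected in all 9 libraries as well, so that each library held bone-forming cells beside the capillary. In bulk RNA of this kind, fewer cells of a type and less RNA per cell cannot be told apart.

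Short promoter words bound by the regulators of both waves were counted upstream of the genes, and they are shown first because their shares differed between the S phase and the mitosis set. RefSeq start sites of GRCm38.p6 were matched for 37 of the 45 genes. The 250 bases before each start, in 19 windows of 16 S phase genes and 21 windows of 21 mitosis genes, were read on both strands. E2F words (TTTCCCGC, TTTGGCGC, TTTCGCGC or TTTGCCGC) stood in 5 of 19 S phase windows (26.3%), in 1 of 21 mitosis windows (4.76%) and in 1.86% of all 32851 windows of the table. The cell cycle homology region (CHR, searched as TTTGAA or TTCGAA) stood in 3 of 19 S phase windows (15.8%), in 10 of 21 mitosis windows (47.6%) and in 17.1% of all windows. A CCAAT box (CCAAT) stood in 11 S phase windows (57.9%), in 19 mitosis windows (90.5%) and in 33.8% of all windows. All 10 mitosis windows with a CHR word also held a CCAAT box, a pairing seen in 2 S phase windows (10.5%) and in 6.02% of all windows. Such matches are descriptions of letters, and they do not show that a factor binds.

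The following upstream sequences show both kinds of promoter and 3 of the genes that were called between the ages (Rrm2, Mki67 and Birc5). Words are in capitals, the last base lies next to the RefSeq start or, for Rrm2, next to the GENCODE start, and none of the windows overlapped an annotated exon or gene body. Mcm5 (chr8:75109259-75109508, plus strand) and Mcm6 (chr1:128359706-128359955, minus strand), which encode subunits of the replicative helicase, held 2 and 3 E2F words, and in each a pair of words on opposite strands shared bases.
Mcm5: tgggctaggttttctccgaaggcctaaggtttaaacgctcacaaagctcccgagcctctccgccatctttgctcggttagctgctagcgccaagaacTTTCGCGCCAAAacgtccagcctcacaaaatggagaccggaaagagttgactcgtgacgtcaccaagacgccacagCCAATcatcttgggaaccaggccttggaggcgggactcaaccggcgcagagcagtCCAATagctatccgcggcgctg
Mcm6: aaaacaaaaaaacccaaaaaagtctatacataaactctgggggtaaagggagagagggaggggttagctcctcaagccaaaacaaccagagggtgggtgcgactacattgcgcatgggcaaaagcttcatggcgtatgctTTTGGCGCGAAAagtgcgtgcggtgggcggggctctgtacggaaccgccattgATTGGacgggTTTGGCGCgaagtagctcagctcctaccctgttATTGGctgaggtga
Rrm2 (chr12:24708004-24708240, plus strand), the small subunit of ribonucleotide reductase, held 1 CCAAT box and none of the E2F words.
Rrm2: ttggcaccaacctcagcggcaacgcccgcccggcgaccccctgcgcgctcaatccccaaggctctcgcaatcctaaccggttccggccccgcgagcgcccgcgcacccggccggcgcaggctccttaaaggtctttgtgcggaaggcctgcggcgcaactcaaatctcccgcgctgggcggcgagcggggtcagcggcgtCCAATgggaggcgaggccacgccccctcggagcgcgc
Mki67 (chr7:135716380-135716629, minus strand), the Ki-67 antigen, held 2 CHR words and 3 CCAAT boxes, Top2a (chr11:99024190-99024439, minus strand), DNA topoisomerase II alpha, held 4 and 6, and Ccnb2 (chr9:70421555-70421804, minus strand), cyclin B2, held 1 and 3.
Mki67: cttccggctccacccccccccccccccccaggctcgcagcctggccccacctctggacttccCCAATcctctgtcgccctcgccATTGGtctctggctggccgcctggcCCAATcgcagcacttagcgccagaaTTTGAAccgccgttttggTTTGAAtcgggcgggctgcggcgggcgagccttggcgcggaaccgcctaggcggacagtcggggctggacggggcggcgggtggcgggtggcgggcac
Top2a: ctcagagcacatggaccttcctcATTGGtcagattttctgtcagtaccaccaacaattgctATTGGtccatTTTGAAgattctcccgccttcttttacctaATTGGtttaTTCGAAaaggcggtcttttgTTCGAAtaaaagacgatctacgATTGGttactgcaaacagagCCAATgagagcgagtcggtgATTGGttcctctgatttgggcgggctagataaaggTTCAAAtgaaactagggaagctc
Ccnb2: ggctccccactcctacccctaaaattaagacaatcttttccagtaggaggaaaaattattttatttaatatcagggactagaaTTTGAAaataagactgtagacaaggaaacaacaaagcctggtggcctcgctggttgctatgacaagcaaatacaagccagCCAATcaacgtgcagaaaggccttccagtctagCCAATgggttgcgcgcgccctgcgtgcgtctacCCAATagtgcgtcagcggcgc
Birc5 (chr11:117848987-117849236, plus strand), survivin of the chromosomal passenger complex, held none of the words in this window.
Birc5: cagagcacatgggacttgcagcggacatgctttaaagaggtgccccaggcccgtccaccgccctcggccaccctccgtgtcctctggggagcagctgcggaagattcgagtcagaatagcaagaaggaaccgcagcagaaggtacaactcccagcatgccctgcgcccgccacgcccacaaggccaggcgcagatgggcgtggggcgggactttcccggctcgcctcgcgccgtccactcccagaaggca

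Of the 45 genes, 44 had a positive log2 fold change in adult over juvenile libraries, against 50.5% of all genes tested, and Plk1 was the exception. In edgeR's quasi-likelihood test with Benjamini-Hochberg adjustment, 5 were called, all of them higher in adult libraries, where 1.89% of all genes tested were called in that direction (253 genes). Another 267 genes (1.99%) were called higher in juvenile libraries, and none of the set was among them, so that calls in either direction made up 3.88% of all genes. The called genes were Rrm2 of the S phase set and Mki67, Birc5, Cenpa and Ube2c of the mitosis set. At an unadjusted p under 0.05, 18 genes were higher in adult libraries, 11 of S phase and 7 of mitosis, against 8.76% of all genes tested. None of the set was higher in juvenile libraries at that level, against 8.54% of all genes. The median log2 fold change was 1.21 for the S phase genes (range 0.19 to 2.80) and 1.07 for the mitosis genes (range -0.80 to 2.38), beside 0.01 for all genes tested. DESeq2 with its default settings called 6 S phase and 7 mitosis genes, again all higher in adult libraries, against 4.9% of the genes it tested.

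**Figure D1:**
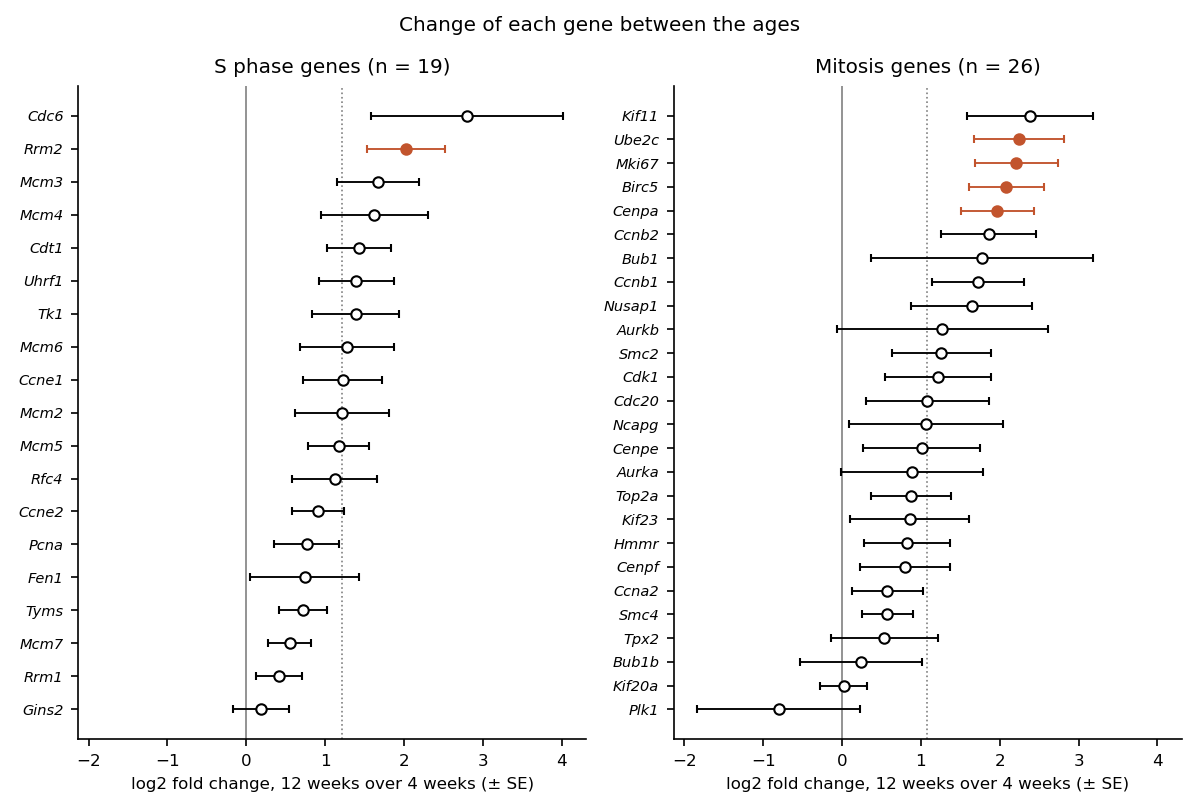
Log2 fold change of adult (12 weeks) over juvenile (4 weeks) libraries with its standard error for the 19 S phase genes (left) and the 26 mitosis genes (right), ordered by size. Filled points had an adjusted p under 0.05 in edgeR, the dotted line is the median of the group (1.21 and 1.07), and only Plk1 lies below 0.

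Among the S phase genes, origin licensing was covered by Cdc6, Cdt1 and the 6 subunits of the MCM helicase, and helicase activation by the helicase partner Gins2. Cdc6, which loads the helicase, stood at 0.181, 6.91, 3.41, 3.19 and 0.848 CPM in juvenile libraries 1 to 5 and at 0, 41.6, 9.03 and 31.7 CPM in adult libraries 1 to 4. Adult libraries 2 and 4 lay far above every juvenile library, while adult library 1 had no count. The log2 fold change was accordingly imprecise, 2.80 ± 1.22 (SE, adjusted p = 0.248), although it was the highest of the S phase set. Cdt1, its partner in licensing, had 13.6 to 42.0 CPM in juvenile and 30.6 to 84.9 CPM in adult libraries. Cdt1 had a log2 fold change of 1.43 ± 0.41 (SE, adjusted p = 0.0730). Gins2, which helps to activate the helicase, had the smallest log2 fold change of the S phase set, 0.19 ± 0.35 (SE, adjusted p = 0.864).

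The helicase genes Mcm2 to Mcm7 had log2 fold changes of 0.55 to 1.67 with a median of 1.25, and none of the 6 was called in edgeR, where 3 had an unadjusted p under 0.05. DESeq2 called Mcm3 and Mcm5, and limma voom none. Mcm7, the most abundant of them per length, stood at 60.7, 42.8, 59.6, 47.5 and 36.7 CPM in juvenile and at 59.6, 47.1, 76.7 and 106 CPM in adult libraries. Mcm7 had a log2 fold change of 0.55 ± 0.28 (SE, adjusted p = 0.332). Mcm3, with the largest fold change of the helicase genes, stood at 7.07, 8.21, 30.6, 9.20 and 5.51 CPM in juvenile and at 39.4, 21.7, 37.9 and 55.3 CPM in adult libraries. Juvenile library 3 overlapped the adult range and stood above the other juvenile libraries for this gene. The log2 fold change was 1.67 ± 0.52 (SE, adjusted p = 0.101), and without that library it was 2.36 with an adjusted p of 0.0205 in edgeR. Mcm5 was the only helicase gene whose groups did not overlap, at 8.82 to 33.0 CPM against 37.2 to 67.9 CPM, a pattern seen in that direction for 4 of the 45 genes and for 4.08% of all genes tested. The opposite pattern was seen for none of the 45 and for 5.07% of all genes tested. Mcm2 (log2 fold change 1.21 ± 0.59, adjusted p = 0.319), Mcm4 (log2 fold change 1.62 ± 0.68, adjusted p = 0.226) and Mcm6 (log2 fold change 1.28 ± 0.59, adjusted p = 0.291) overlapped between the ages. In adult library 1 they stood at 6.36, 1.85 and 12.1 CPM. Per length, the highest of the 6 subunits stood 5.64-fold to 11.9-fold above the lowest within a juvenile library, 2.38-fold in adult library 4 and 33.0-fold in adult library 1, where Mcm4 was lowest and Mcm5 highest.

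The called S phase gene belongs to deoxynucleotide supply. Rrm2, the small subunit of ribonucleotide reductase that is made in S phase, stood at 13.6, 16.3, 35.5, 18.96 and 7.63 CPM in juvenile and at 36.2, 32.9, 138 and 93.6 CPM in adult libraries. Adult libraries 3 and 4 stood far above every juvenile library. Adult library 1 was just above the highest juvenile one (36.2 against 35.5 CPM), and adult library 2 lay within the juvenile range. The mean was 18.4 ± 10.5 CPM (SD, n = 5) against 75.1 ± 50.2 CPM (SD, n = 4). Rrm2 had a log2 fold change of 2.03 ± 0.50 (SE, adjusted p = 0.0403). The large subunit Rrm1 had 23.0 to 48.7 CPM against 38.4 to 66.8 CPM. Rrm1 had a log2 fold change of 0.41 ± 0.29 (SE, adjusted p = 0.544). Rrm2b, the subunit made outside the division cycle, stood at 0.906 to 15.6 CPM against 0.501 to 16.3 CPM and had a log2 fold change of -0.17 ± 1.02 (SE, adjusted p = 0.967). Thymidylate synthase Tyms (log2 fold change 0.72 ± 0.30, adjusted p = 0.229) and thymidine kinase Tk1 (log2 fold change 1.39 ± 0.55, adjusted p = 0.201) make and salvage thymidine nucleotides. In both genes adult libraries 3 and 4 were the highest of all 9.

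Pcna, the clamp that tethers DNA polymerase, stood at 28.3, 35.9, 47.0, 34.0 and 36.2 CPM in juvenile and at 19.997, 37.6, 79.7 and 109.6 CPM in adult libraries. Pcna had a log2 fold change of 0.77 ± 0.41 (SE, adjusted p = 0.371). Its lowest and its highest value were both adult, in libraries 1 and 4. Rfc4, a subunit of the clamp loader, stood at 23.7, 21.2, 15.3, 9.95 and 13.6 CPM in juvenile and at 16.9, 9.02, 45.9 and 74.0 CPM in adult libraries. Rfc4 had a log2 fold change of 1.12 ± 0.54 (SE, adjusted p = 0.315), and again the lowest and the highest value were adult. Fen1, which trims Okazaki fragments (log2 fold change 0.74 ± 0.69, adjusted p = 0.670), and Uhrf1, which carries DNA methylation through replication (log2 fold change 1.39 ± 0.48, adjusted p = 0.131), were not called.

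Cyclin E drives entry into S phase, and both of its genes were compared. Ccne1 stood at 11.1, 5.62, 11.9, 15.4 and 4.66 CPM in juvenile and at 14.4, 22.04, 19.1 and 35.3 CPM in adult libraries. Ccne1 had a log2 fold change of 1.22 ± 0.50 (SE, adjusted p = 0.216). Ccne2 stood at 18.7, 18.7, 17.0, 15.0 and 16.1 CPM in juvenile and at 39.5, 22.4, 37.6 and 28.9 CPM in adult libraries, a set of groups that did not overlap. The log2 fold change of Ccne2 was 0.91 ± 0.33 (SE, adjusted p = 0.155). Per length, Ccne2 averaged 4.90 ± 0.46 CPM per kb in juvenile and 9.19 ± 2.28 in adult libraries, beside 3.66 ± 1.69 and 8.53 ± 3.37 for Ccne1 (SD).

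**Figure D2:**
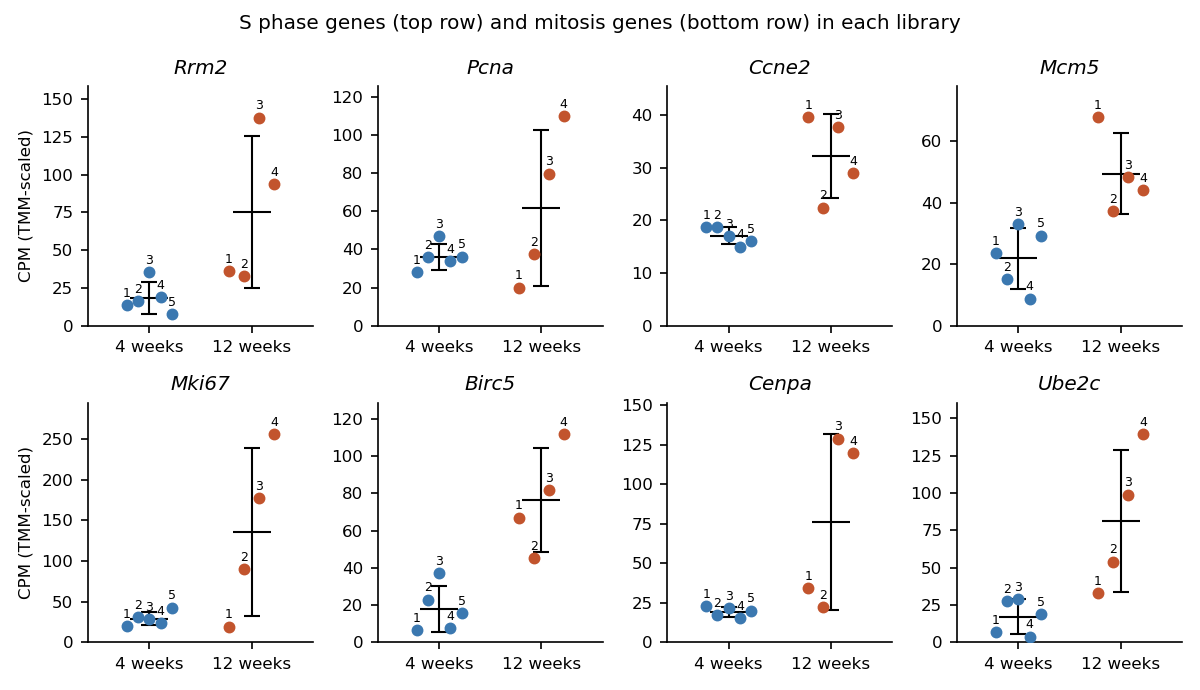
CPM of 4 S phase genes (Rrm2, Pcna, Ccne2, Mcm5) and the 4 called mitosis genes (Mki67, Birc5, Cenpa, Ube2c) in each library, numbered by replicate, with the mean and SD of each age in black. Adult library 4 stood above all juvenile libraries in each of the 8 panels, and adult library 1 stood below the juvenile range for Mki67 (19.5 against 20.3 to 42.6 CPM) and for Pcna (19.997 against 28.3 to 47.0 CPM).

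Among the mitosis genes, the cyclin and kinase core was covered by Ccna2, Ccnb1, Ccnb2 and Cdk1. Ccna2, cyclin A2 of S and G2 phase, stood at 30.1, 29.0, 34.9, 34.7 and 46.8 CPM in juvenile and at 12.5, 37.1, 58.5 and 101 CPM in adult libraries. Ccna2 had a log2 fold change of 0.58 ± 0.45 (SE, adjusted p = 0.595). The adult values lay on both sides of the narrow juvenile range. Ccnb1, cyclin B1, stood at 6.16, 5.19, 21.9, 3.57 and 8.27 CPM in juvenile and at 24.2, 12.2, 38.4 and 44.6 CPM in adult libraries. Ccnb1 had a log2 fold change of 1.73 ± 0.59 (SE, adjusted p = 0.128). Ccnb2, the second B-type cyclin, stood at 8.16, 22.5, 24.7, 2.63 and 9.33 CPM in juvenile and at 45.4, 14.2, 68.8 and 67.3 CPM in adult libraries. Ccnb2 had a log2 fold change of 1.86 ± 0.60 (SE, adjusted p = 0.110). In both genes adult libraries 1, 3 and 4 reached at least the highest juvenile value, and adult library 2 did not. The annotated copy Ccnb2-ps held 311 counts beside 1946 for Ccnb2, so that some counts may be split between the copies. Cdk1, the kinase that B-type cyclins activate, stood at 2.72, 15.1, 23.6, 15.8 and 15.9 CPM in juvenile and at 3.70, 53.3, 33.7 and 45.4 CPM in adult libraries, with the highest value in adult library 2. Cdk1 had a log2 fold change of 1.22 ± 0.67 (SE, adjusted p = 0.388).

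Ube2c, the ubiquitin-conjugating enzyme of the anaphase-promoting complex, was among the called genes. It stood at 6.71, 27.8, 28.7, 3.75 and 18.9 CPM in juvenile and at 32.8, 54.1, 98.9 and 139 CPM in adult libraries, and the groups did not overlap. The mean was 17.2 ± 11.6 CPM (SD, n = 5) against 81.2 ± 47.4 CPM (SD, n = 4). Ube2c had a log2 fold change of 2.24 ± 0.57 (SE, adjusted p = 0.0477). Cdc20, which activates the same complex, had 1.01 to 23.4 CPM against 5.78 to 39.1 CPM and a log2 fold change of 1.08 ± 0.78 (SE, adjusted p = 0.553).

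Birc5, or survivin, directs the Aurora B kinase to the centromere and the spindle midzone, and it had the smallest adjusted p of the 45 genes. It stood at 6.71, 22.9, 37.0, 7.70 and 15.7 CPM in juvenile and at 66.9, 45.1, 81.7 and 112 CPM in adult libraries, again without overlap. The mean was 18.005 ± 12.5 CPM (SD, n = 5) against 76.4 ± 28.0 CPM (SD, n = 4). Birc5 had a log2 fold change of 2.09 ± 0.47 (SE, adjusted p = 0.0295). Aurkb, the kinase itself, had no count in juvenile library 1 and adult library 1 and reached 26.9 CPM. Aurkb had a log2 fold change of 1.27 ± 1.34 (SE, adjusted p = 0.720). Aurka, the spindle pole kinase, ranged over 0 to 19.2 CPM (log2 fold change 0.89 ± 0.91, adjusted p = 0.709). Of the spindle checkpoint proteins, Bub1 ranged over 0 to 30.4 CPM (log2 fold change 1.77 ± 1.41, adjusted p = 0.599) and Bub1b over 2.30 to 11.5 CPM (log2 fold change 0.24 ± 0.78, adjusted p = 0.931). Plk1, polo-like kinase, ranged over 0 to 14.5 CPM, with its highest value in a juvenile library (log2 fold change -0.80 ± 1.03, adjusted p = 0.783).

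Cenpa, the histone H3 variant that marks the centromere, stood at 23.0, 17.1, 21.7, 15.4 and 20.1 CPM in juvenile and at 34.2, 22.4, 129 and 119.8 CPM in adult libraries. The juvenile values were close together, adult library 2 fell within their range, and adult libraries 3 and 4 stood far above it. The mean was 19.5 ± 3.17 CPM (SD, n = 5) against 76.3 ± 55.7 CPM (SD, n = 4). Cenpa had a log2 fold change of 1.97 ± 0.46 (SE, adjusted p = 0.0342). The kinetochore proteins Cenpe (log2 fold change 1.01 ± 0.74, adjusted p = 0.563) and Cenpf (log2 fold change 0.80 ± 0.58, adjusted p = 0.554) were not called.

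Mki67, which coats mitotic chromosomes and is the usual stain for cycling cells, stood at 20.3, 31.1, 28.5, 24.0 and 42.6 CPM in juvenile and at 19.5, 89.7, 177 and 256 CPM in adult libraries. Adult library 1 was the lowest of all 9 libraries, and the other 3 adult libraries were above every juvenile one. The mean was 29.3 ± 8.51 CPM (SD, n = 5) against 136 ± 103 CPM (SD, n = 4). Mki67 had a log2 fold change of 2.21 ± 0.52 (SE, adjusted p = 0.0356). Top2a, which untangles sister chromatids, stood at 16.1, 32.3, 73.4, 41.9 and 46.8 CPM in juvenile and at 25.1, 38.4, 83.0 and 162 CPM in adult libraries. Top2a had a log2 fold change of 0.87 ± 0.51 (SE, adjusted p = 0.429). Its paralog Top2b, used in cells that do not divide, had a log2 fold change of 0.01 ± 0.18 (SE, adjusted p = 0.987) and 87.2 to 102 CPM against 79.4 to 119 CPM.

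Of the spindle motors and their partners, Kif11, which pushes spindle poles apart, had the largest fold change of the mitosis set. It stood at 4.35, 2.45, 2.77, 2.06 and 4.24 CPM in juvenile and at 1.16, 21.5, 9.40 and 34.5 CPM in adult libraries, and the log2 fold change was 2.38 ± 0.80 (SE, adjusted p = 0.127). Adult library 1 was again the lowest and the other 3 adult libraries were above every juvenile one. The cytokinesis motors Kif20a (log2 fold change 0.02 ± 0.30, adjusted p = 0.988) and Kif23 (log2 fold change 0.86 ± 0.75, adjusted p = 0.646) were not called. Nor were the spindle proteins Tpx2 (log2 fold change 0.53 ± 0.68, adjusted p = 0.780), Nusap1 (log2 fold change 1.64 ± 0.77, adjusted p = 0.294) and Hmmr (log2 fold change 0.83 ± 0.54, adjusted p = 0.499). For Kif20a, 1271 of 4338 exon bases also lie in exons of Cdc23 on the opposite strand. The strand setting of the counting is not given in the sources used here, so that reads of these genes cannot be told apart there.

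The condensin genes compact mitotic chromosomes. Smc4, an ATPase of both condensins, stood at 32.6, 63.1, 74.9, 65.1 and 78.8 CPM in juvenile and at 43.3, 115, 121 and 95.1 CPM in adult libraries. Smc4 had a log2 fold change of 0.57 ± 0.32 (SE, adjusted p = 0.399). Smc2, its partner in the complex, ranged from 13.4 to 32.9 CPM and from 3.12 to 86.0 CPM (log2 fold change 1.26 ± 0.63, adjusted p = 0.330). Ncapg, a subunit of condensin I, had a log2 fold change of 1.06 ± 0.98 (SE, adjusted p = 0.665). Per length, the 4 highest S phase genes over all 9 libraries were Pcna (19.8 CPM per kb), Rfc4 (16.6), Rrm2 (15.7) and Mcm7 (13.5), and the 4 highest mitosis genes were Ccnb2 (19.1), Ube2c (17.6), Smc4 (14.7) and Birc5 (12.9).

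The adult libraries were unlike each other. Of the 45 genes, 26 were highest in adult library 4, 8 in adult library 3, 5 in adult library 2, 4 in adult library 1 and 2 in a juvenile library. In adult library 4, 40 genes stood above the highest juvenile library and 1 below the juvenile mean CPM. Adult library 3 had 33 and 6, adult library 2 had 21 and 9, and adult library 1 had 11 and 26. Relative to the juvenile mean, the median gene stood at a log2 difference of -0.03 in adult library 1, 0.93 in adult library 2, 1.46 in adult library 3 and 2.03 in adult library 4. In the 5 juvenile libraries it lay between -0.26 and 0.39. Adult library 1 was mixed rather than low throughout. Of genes chosen after their values were seen, Birc5, Ccnb2, Mcm5 and Mcm3 stood there at 66.9, 45.4, 67.9 and 39.4 CPM, each above the juvenile range, while Mki67, Ccna2 and Smc2 stood at 19.5, 12.5 and 3.12 CPM, each below it. No count at all was found there for Cdc6, Plk1, Aurkb and Bub1.

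The 5 calls depended on single libraries. Without juvenile library 1, 2, 4 or 5, or without adult library 3 or 4, none of Rrm2, Mki67, Birc5, Cenpa and Ube2c was called in edgeR, and without juvenile library 3 Rrm2 and Birc5 were still called. None of them was called among the 3 juvenile and 4 adult libraries in which Xist exceeded the Y-linked genes, where the medians of the S phase and mitosis genes were 1.11 and 1.24, and 3 and 7 genes had an unadjusted p under 0.05. Their log2 fold changes over all alternatives stayed between 1.58 and 2.59 with adjusted p between 0.000692 and 0.239. Without adult library 1, 4 S phase and 6 mitosis genes were called and the medians were 1.40 and 1.41. Without adult library 4, 0 were called in either group (6 and 6 at an unadjusted p under 0.05) and the medians were 0.94 and 0.74. The median SD of log2 CPM among replicates was 0.57 in juvenile and 1.0 in adult libraries for the S phase genes. It was 0.92 and 1.20 for the mitosis genes, beside 0.51 and 0.70 for all genes tested. The SD was larger in adult libraries for 30 of the 45 genes, and for 68.8% of all genes tested.

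**Figure D3:**
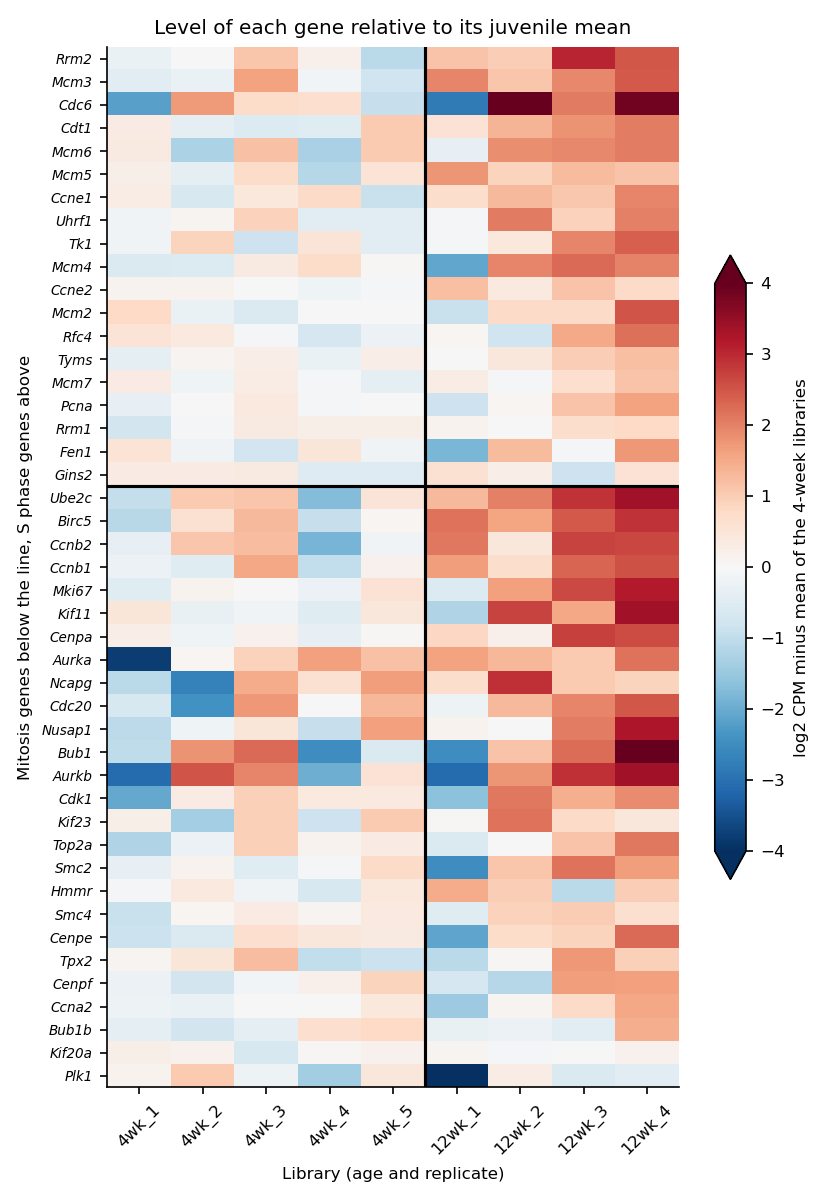
Log2 CPM of each of the 45 genes in each library minus the mean log2 CPM of the juvenile libraries, S phase genes above the line and mitosis genes below it, ordered by the adult mean. Red is above and blue below the juvenile mean, and the colours stop at 4. Adult libraries 2, 3 and 4 are red in most rows (39, 39 and 44 genes above the juvenile mean), and adult library 1 is mixed (22 genes).

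S phase and mitosis genes were then set against each other in each library, to see whether the age difference lay more on the side of DNA copying or of division. Summed CPM of the S phase genes were 385, 367, 489, 344 and 379 in juvenile libraries 1 to 5 and 497, 655, 915 and 1178 in adult libraries 1 to 4. Summed CPM of the mitosis genes were 272, 416, 551, 348 and 528 in juvenile and 430.1, 726, 1242 and 1621 in adult libraries. Both sums were thus highest in adult libraries 4, 3 and 2, in that order. The S phase sums did not overlap between the ages, although 497 CPM in adult library 1 and 489 CPM in juvenile library 3 were close, and the mitosis sum of adult library 1 lay within the juvenile range. The 45 genes together took 0.0631% to 0.101% of all counts in juvenile libraries and 0.0993% to 0.310% in adult libraries. Their summed levels were 816 ± 158 CPM (SD, n = 5) and 1816 ± 828.9 CPM (SD, n = 4), a ratio of 2.23.

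The balance between the groups differed between the ages by less than the spread of the libraries. The mean log2 CPM of the mitosis genes minus that of the S phase genes was -0.67 ± 0.52 over the juvenile libraries (SD, n = 5). It was -0.68 ± 0.27 over the adult libraries (SD, n = 4), a difference of -0.01. The difference ranged from -0.17 to 0.15 over the 14 alternatives run for it, including the one without Mki67, Top2a and Ccna2, which are also made in S phase. Within the juvenile group the balance ran from -1.32 in library 1 to -0.03 in library 5, and within the adult group from -1.06 in library 1 to -0.49 in library 3. Among juvenile libraries the mean log2 CPM of the S phase genes was 4.01 ± 0.18 and that of the mitosis genes 3.33 ± 0.59 (SD over 5 libraries). Among adult libraries they were 5.02 ± 0.78 and 4.34 ± 1.04 (SD over 4 libraries).

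**Figure D4:**
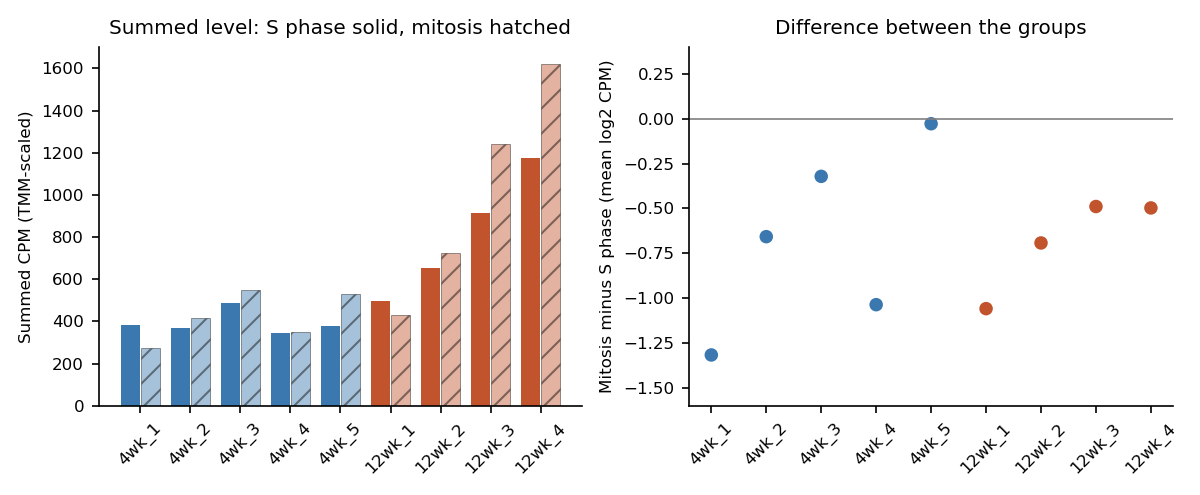
Left, summed CPM of the 19 S phase genes (solid) and the 26 mitosis genes (hatched) in each library, juvenile in blue and adult in orange. Right, mean log2 CPM of the mitosis genes minus that of the S phase genes. The sums run from 272 to 551 in juvenile and from 430.1 to 1621 in adult libraries, and the differences of both ages lie between -1.32 and -0.03.

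Other genes of the same pathways were read in the same fit. Of 55 other mitosis genes, 53 were tested and 51 had a positive log2 fold change (96.2%, against 50.5% of all genes tested), with a median of 1.03. In this list 4 were called (7.55%), all higher in adult libraries, against 1.89% of all genes tested in that direction. Hmgb2, a chromatin protein abundant in dividing cells, stood at 31.2 to 66.4 CPM against 106 to 376 CPM (log2 fold change 2.11 ± 0.37, adjusted p = 0.00950). Pttg1, or securin, stood at 5.44 to 19.01 CPM against 22.8 to 82.6 CPM (log2 fold change 2.20 ± 0.44, adjusted p = 0.0168). The Cdk-binding proteins Cks2, at 23.0 to 39.8 CPM against 46.6 to 164 CPM (log2 fold change 1.83 ± 0.37, adjusted p = 0.0173), and Cks1b, at 23.3 to 41.9 CPM against 47.6 to 82.7 CPM (log2 fold change 1.01 ± 0.26, adjusted p = 0.0492), were called as well. In none of these 4 genes did the groups overlap, so that adult library 1 was above the juvenile range for them. Such groups, higher in adult libraries, were seen for 10 of the 53 tested genes and for 4.08% of all genes tested. The opposite was seen for 0 of the list and for 5.07% of all genes tested. Adult library 1 was not raised throughout the list. Of genes named after their values were seen, Ndc80, Pbk and Tacc3 stood there at 0, 0.347 and 1.04 CPM, each below the juvenile range.

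Of 44 other replication genes, 37 had a positive log2 fold change (84.1%, against 50.5% of all genes tested), with a median of 0.65. Of the 44, 2 were called (4.55%), both higher in adult libraries, against 1.89% of all genes tested in that direction. Gmnn, or geminin, the inhibitor that keeps Cdt1 from licensing origins again, stood at 2.74 to 9.96 CPM in juvenile libraries and at 12.4, 44.8, 46.5 and 47.5 CPM in adult libraries (log2 fold change 2.52 ± 0.53, adjusted p = 0.0195). Dut, which removes dUTP, stood at 15.6 to 26.7 CPM against 25.5 to 125.8 CPM (log2 fold change 1.87 ± 0.41, adjusted p = 0.0236). Geminin is made from S phase to mitosis, and its groups did not overlap.

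Of 20 E2F, DREAM and MuvB genes, 15 had a positive and 5 a negative log2 fold change, with a median of 0.40 and a range of -0.54 to 2.49. In this list 0 were called in edgeR (4 at an unadjusted p under 0.05), 3 in DESeq2 and 0 in limma voom. Of the genes with such an unadjusted p, named after their values were seen, E2f2 had the largest change of the list, at 1.99 to 7.88 CPM against 4.28 to 61.6 CPM (log2 fold change 2.49 ± 0.72, adjusted p = 0.0754). E2f7, at 0.638 to 7.80 CPM against 8.18 to 50.7 CPM without overlap (log2 fold change 2.20 ± 0.72, adjusted p = 0.116), and E2f4, at 19.3 to 47.7 CPM against 41.8 to 101 CPM (log2 fold change 1.04 ± 0.32, adjusted p = 0.0927), were also among them. E2f1 stood at 2.77 to 23.7 CPM against 6.19 to 18.9 CPM (log2 fold change -0.54 ± 0.60, adjusted p = 0.740). Foxm1 stood at 7.02 to 12.7 CPM against 5.78 to 11.7 CPM (log2 fold change -0.23 ± 0.57, adjusted p = 0.901). Mybl2, or B-Myb, was itself uneven among adult libraries, at 1.62 and 9.52 CPM in libraries 1 and 2 and at 48.4 and 43.7 CPM in libraries 3 and 4. In juvenile libraries it stood at 0.851 to 7.61 CPM (log2 fold change 2.19 ± 0.84, adjusted p = 0.183). The 8 genes listed for uses outside the division cycle, such as Top2b and Rrm2b, had 4 positive and 4 negative log2 fold changes. Their median was -0.08. Of these 8, 0 were called in edgeR (1, Smc3, at an unadjusted p under 0.05), 1 in DESeq2 and 0 in limma voom. The list is not free of division genes, because the cohesin genes Smc1a and Smc3 also act in dividing cells. It also holds Cenpb, a centromere gene that is not a paralog of Cenpa (log2 fold change -0.60 ± 0.28, adjusted p = 0.301). Named after their values were seen, Smc1a and Smc3 had log2 fold changes of 0.54 ± 0.35 (SE, adjusted p = 0.483) and 0.84 ± 0.24 (SE, adjusted p = 0.0765).

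The promoter words shown above were also set beside the change with age. The 10 mitosis genes with a CHR word and a CCAAT box had a median log2 fold change of 1.24 and the 11 without both had 1.01, with 2 called genes in each. The 5 S phase genes with an E2F word had a median of 1.28 and the 11 without one had 1.21.

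Markers of blood cell precursors, which divide in the marrow, differed with age in the same libraries, and their part in the result was not tested. Of 8 erythroid markers, 6 were called higher in adult libraries, against 1.89% of all genes tested. All 8 had a positive log2 fold change, against 50.5% of all genes tested. Their sum ran from 314 to 2026 CPM in juvenile and was 6059, 3380, 8663 and 30705 CPM in adult libraries 1 to 4. Klf1, the erythroid transcription factor that marks nucleated precursors, stood at 0 to 3.003 CPM in juvenile libraries and at 0, 81.3, 78.8 and 229 CPM in adult libraries 1 to 4. Gata1, the factor that drives the erythroid programme, stood at 0 to 3.19 CPM and at 4.97, 1.67, 42.7 and 62.1 CPM. The haemoglobin genes Hbb-bs and Hba-a1 stood at 3182 and 2742 CPM in adult library 1, the only adult library without a count of Klf1.

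Of 5 granulocyte progenitor markers, 3 had enough counts to be tested. All 3 were called higher in adult libraries, where 1.89% of all genes tested were called in that direction. The sum of the list was 3.75 to 32.6 CPM in juvenile libraries and 1629, 3.67, 497 and 783 CPM in adult libraries 1 to 4. Elane, Ctsg and Ms4a3 had no count in adult library 2. Neutrophil markers (6 of 7 tested, all 6 called) summed to 1.81 to 62.1 CPM against 92.9 to 3256 CPM. Megakaryocyte markers (3 of 6 tested, 1 called) summed to 13.0 to 26.3 CPM against 62.4 to 4247 CPM, with the highest value in adult library 4. B lineage markers (5 of 8 tested in edgeR) summed to 0.375 to 18.3 CPM against 1.67 to 189 CPM, with Rag1 at 0 in 8 libraries. Of the B lineage list, 0 were called in edgeR (2 at an unadjusted p under 0.05), 2 in DESeq2 and 0 in limma voom. Macrophage markers (0 of 6 called, 4 at an unadjusted p under 0.05, 1 in DESeq2 and 0 in limma voom) summed to 230.3 to 430.4 CPM against 379 to 946 CPM. T cell markers summed to 2.82 to 11.2 CPM against 8.17 to 26.7 CPM, with Cd3e at 0 in 8 libraries. Only 1 of the 5, Trac, had enough counts to be tested in edgeR, and it was not called, also at an unadjusted p under 0.05. DESeq2 called 1 of the T cell list and limma voom 0.

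Of the resident cells, chondrocyte markers (5 of 7 tested, 2 called higher in adult libraries) summed to 361 to 976 CPM against 596 to 4540 CPM. The highest chondrocyte sum was in adult library 2, and Matn1 was at 0 in 7 libraries. Osteoblast markers had 4 of 8 called higher in juvenile libraries (1.99% of all genes tested) and 1, Bglap, in adult libraries (1.89% of all genes tested). Osteoclast markers (1 of 6 called) summed to 8747 to 13696 CPM against 13393 to 20138 CPM. Pericyte markers (0 of 6 called, 3 at an unadjusted p under 0.05, 1 in DESeq2 and 1 in limma voom) summed to 415 to 678 CPM against 378 to 621 CPM. Adipogenic stroma markers had Cxcl12 called higher in adult and Lepr in juvenile libraries, with sums of 281 to 391 CPM against 381 to 1049 CPM. Which of these cells held the S phase and mitosis transcripts cannot be told apart in libraries of mixed cells.

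**Figure D5:**
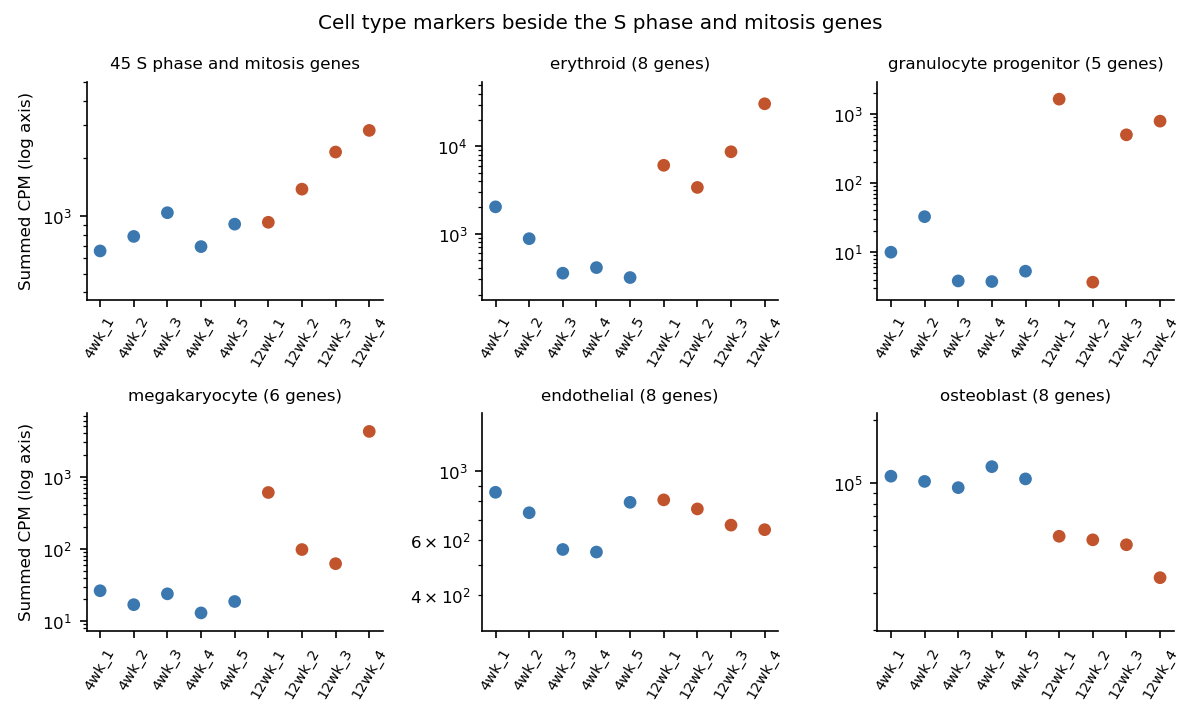
Summed CPM, on log axes, of the 45 S phase and mitosis genes and of the erythroid, granulocyte progenitor, megakaryocyte, endothelial and osteoblast markers in each library, juvenile in blue and adult in orange. The erythroid and the 45-gene sums are highest in adult library 4 (30705 and 2798 CPM), and the granulocyte progenitor sum is lowest in adult library 2 (3.67 CPM).

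Some levels rest on shared sequence. Of the exon bases of Gins2, 2758 of 4097 also lie in exons of Gse1 on the opposite strand, and of Fen1, 1909 of 2422 lie in those of Gm10143. Smaller overlaps of this kind involve Ccne2 with Ints8 (609 bases), Ube2c with Tnnc2 (592 bases), Ncapg with Lcorl (944 bases) and Ccna2 with Exosc9 (510 bases). Tnnc2 held 28 counts in all libraries beside 2992 for Ube2c. Some partners held far more counts than the gene of the set. Eif4a2 overlaps 194 of the 1533 exon bases of Rfc4 and held 11963 counts beside 1629. Tmem258 overlaps Fen1 by 130 bases and held 15029 counts beside 659. Of the 4426 exon bases of Mcm7, 321 lie in exons of Ap4m1 and 64 in those of Cops6 (840 and 8691 counts beside 3605).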

How the data were processed

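RNA of microdissected capillaries and their surroundings was sequenced as 75 bp read pairs in 5 juvenile and 4 adult libraries. The authors deposited whole-number counts per Ensembl gene and library, made per the submitters' processing notes with TopHat2, Bowtie2 and featureCounts on GRCm38 (mm10), and the strand setting, annotation release and tool versions are not given in the sources used here. Library totals were 4856833 to 8077362 counts.

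From these counts, genes were filtered with filterByExpr, scaled by TMM and tested with edgeR 4.0.16 (quasi-likelihood F test, R 4.3.3), 12 against 4 weeks, with Benjamini-Hochberg adjustment over all 13418 genes tested and a threshold of 0.05. A positive log2 fold change is higher in adult libraries, and its SE is the fold change divided by the square root of F. Log2 CPM used a prior count of 2. DESeq2 1.42.0, the tool the study names, and limma 3.58.1 (voom) were alternatives, beside other scalings, filters, thinning, left-out libraries, the libraries richer in Xist than in Y-linked counts, and the replicate block. Steps were tested on simulated data. Gene names, lengths and positions came from GENCODE for GRCm38 (37693 of 39179 identifiers matched), and promoters from RefSeq.

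Same-numbered libraries did not deviate together (correlations of -0.03 to 0.03), so numbers were not used as pairs. No 2 libraries were copies (36 pairs, lowest chi-square per degree of freedom 17.0). Members, companion lists and marker lists were chosen with earlier results of these data known. Values in every library are given for called genes, for the 4 genes per group with the highest CPM per kb, for the 3 per group with the largest fold change, and for Mki67, Top2a, Pcna, Ccne1, Ccne2, Ccna2, Ccnb1 and Cdk1. Of the companion lists, the called genes and E2f1, Mybl2, Foxm1, Gmnn, Top2b and Rrm2b are named. The groups without overlap (Mcm5 among them) were named after their values were seen.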

Additional observations from a re-analysis of the deposited data

Results flagged for a closer look

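In groups of 4 or 5 libraries, 96 groups of values were examined for a library far from the rest of its age (Dixon's test at the 95% level). Chance flags about 1 in 20 groups, or 4.8 of 96, and 8 stood apart. Juvenile library 3 accounted for 5 of them. Its Mcm3 level was 30.6 CPM, beside 5.51 to 9.20 CPM in the other juvenile libraries. Its Uhrf1 level was 28.3 CPM, beside 10.6 to 15.7 CPM, and its Ccnb1 level was 21.9 CPM, beside 3.57 to 8.27 CPM. Its summed level of the 19 S phase genes was 489 CPM, beside 344 to 385 CPM. Kif20a went the other way there, with 18.7 CPM beside 30.04 to 34.4 CPM.

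Among adult libraries, library 1 had the lowest Mcm6 level, 12.1 CPM beside 55.9 to 63.9 CPM. Bub1b stood at 11.5 CPM in library 4, beside 2.85 to 3.34 CPM. Ncapg stood at 21.9 CPM in library 2, beside 4.51 to 5.81 CPM.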

How the results depend on the processing

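Counts of calls depended on single libraries and on the tool, and directions hardly did. The median log2 fold change stayed between 0.94 and 1.41 for the S phase genes and between 0.74 and 1.41 for the mitosis genes over 20 alternatives. With 1 library left out in turn, 262 to 651 of all genes, 0 to 4 S phase genes, 0 to 6 mitosis genes and 2 to 9 companion genes were called, against 520, 1, 4 and 6 with all libraries. DESeq2 called 1490, 6, 7 and 18. Limma voom called 2 S phase and 2 mitosis genes. Scaling by library totals called 2 S phase and 12 companion genes, moved the median of all genes to 0.18 and gave 480 genes higher in adult and 197 in juvenile libraries (253 and 267 with TMM). A minimum of 10 counts in every library called 2 S phase genes. With libraries of more Xist than Y-linked counts (3 juvenile, 4 adult), 73 of all genes and 0 in each list were called. With the replicate block, 89 of all genes, 0 S phase, 0 mitosis and 0 companion genes were called, although the numbers did not pair the libraries. At an unadjusted p under 0.05, edgeR gave 4 S phase and 8 mitosis genes with the block and 3 and 7 with the Xist libraries. Log2 fold changes turned for Gins2 (-0.094 with the Xist libraries), for Kif20a (-0.021 after thinning) and, with 1 library left out, for Bub1b (-0.47 to 0.49), Kif20a (-0.11 to 0.076) and Tpx2 (-0.030 to 0.96), and the cause was not tested. The lowest values came without adult library 4 (Bub1b), juvenile library 3 (Kif20a, which was also at -0.0085 without adult library 4) and adult library 3 (Tpx2). The balance of mitosis and S phase genes was recomputed under 14 alternatives (9 with 1 library left out and 5 others) and moved by less than its spread in each of them. At these depths, genes near 3 counts, such as Bub1 or Cdc6 in some libraries, carry errors too large to order the libraries by them.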
